A study of Mus musculus with 6 samples.

Results

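The genes described here are the nuclear genes for subunits of the mitochondrial respiratory chain and ATP synthase, complexes I to V. They were defined by symbol: Ndufa, Ndufb, Ndufc, Ndufs and Ndufv genes without the Ndufaf assembly factors, Sdha to Sdhd, Uqcr genes and Cyc1, the Cox4i, Cox5, Cox6, Cox7 and Cox8 genes, and Atp5 genes without Atp5s. This set was chosen with earlier results of these data known. The rule matched 108 mouse symbols in RefSeq, and 84 of them had a value in at least 1 library, out of 16058 genes with a value. These 84 are 36 genes of complex I, 4 of complex II, 9 of complex III, 18 of complex IV and 17 of complex V, with Ndufa4 counted in complex IV. The other 24 symbols, 19 pseudogenes and 5 protein-coding genes (Cox7b2, Ndufb1, Cox8c, Ndufb4b and Ndufb4c), are not analysed here, nor are the subunits that mitochondrial DNA encodes.

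Complex I takes electrons from NADH and complex II from succinate. Coenzyme Q carries them to complex III, cytochrome c carries them on to complex IV, and complex IV passes them to oxygen. Complexes I, III and IV pump protons across the inner mitochondrial membrane, and complex V, the ATP synthase, lets the protons back in to make ATP. Macrophages are known to shift between respiration and glycolysis as they are activated.

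RNA came from spleen cells of C57BL/6 mice, sorted into 3 gates by Ly6c, a monocyte surface antigen, and F4/80, a macrophage surface antigen. Marker genes of B cells, plasma cells and neutrophils were also present in all 3 gates, as given below. The T-ALL mice had received GFP+ leukemia cells taken from leukemic mice (1000000 cells per mouse, at 6 to 8 weeks of age, without irradiation) and were sampled at day 15. The titles and the disease state label call the other 3 libraries normal spleen and control, while the protocol text speaks of leukemia mice at both day 0 and day 15. Those 3 libraries are called normal here, after their titles, and the age given for them is also 6 to 8 weeks. Each gate was sequenced once in T-ALL and once in normal spleen, so there were 6 libraries and no replicate within a gate and state. The labels give neither the origin of the leukemia line nor the number of mice behind a library, and do not say whether the gates of a state came from separate mice, so that p-values measure only the spread between these sorted fractions.

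Values are FPKM, the fragments of a gene scaled to its transcript length and to library size, and in every list of 3 values below the gates stand in the order Ly6chiF4/80lo, Ly6cloF4/80lo and Ly6cloF4/80hi. The sort markers followed the gates. Ly6c2 had 1405, 21.4 and 19.8 FPKM in T-ALL, against 482, 19.9 and 11.8 FPKM in normal spleen, and Adgre1, which encodes F4/80, had 47.3, 74.7 and 234 FPKM in T-ALL, against 86.6, 86.7 and 529 FPKM in normal spleen. The libraries listed 14225 to 14628 genes. The spacing of low FPKM values placed their depth at 6560000 to 8480000 fragments. At that depth the median subunit gene had 514 fragments in its lowest library, a counting error of 4.41%, and 77 of the 81 genes tested had at least 100 fragments in every library; the other 4 were Cox4i2, Cox6a2, Cox6b2 and Ndufa11.

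The median mRNA difference of the subunit genes was positive in T-ALL in all 5 complexes, and genes of every complex except complex II rose. Of the 81 subunit genes that could be tested, 32 rose in T-ALL (39.5%, against 8.20% of the 11616 genes tested), 0 fell (against 3.94%) and 49 did not pass. The test was limma on log2(FPKM + 1), 3 libraries per state with the gate as a block, and a gene passed at an adjusted p under 0.05. At an unadjusted p under 0.05, 73 subunit genes were higher (19.4% of all genes were) and 1 was lower (15.4%). The log2 difference was positive for 80 of the 81 genes, with a median of 0.62 over the subunit genes and of -0.03 over all genes tested. The 32 that passed were 14 of 36 genes of complex I, 0 of 4 of complex II, 5 of 9 of complex III, 5 of 15 of complex IV and 8 of 17 of complex V. Without the T-ALL or the normal Ly6chiF4/80lo library, 11 passed, beside 7.13 and 7.23% of all genes in the same fits. Without the T-ALL or the normal Ly6cloF4/80hi library 0 passed, beside 2.48 and 2.2% of all genes, and 41 were higher at an unadjusted p under 0.05. With 1 library left out, the median log2 lay between 0.56 and 0.72. The count was 2 without the gate block (1.27% of all genes) and 3 when genes of any level were tested (1.82%).

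In FPKM as deposited, the libraries of the 2 states did not overlap for most subunit genes. All 3 T-ALL libraries lay above all 3 normal libraries for 74 of the 81 genes (13.8% of all genes tested did so), and for none did they all lie below (10.9%). Some gaps were small: the lowest T-ALL and highest normal values were 87.9 and 87.2 FPKM for Ndufv3, and 79.96 and 77.5 FPKM for Ndufa13. The libraries themselves summed to 552971 to 583298 FPKM in T-ALL, against 494558 to 533388 FPKM in normal spleen. Overlap was not counted after rescaling. The 7 genes whose states overlapped were Ndufa6 and Ndufc2 of complex I, Sdha of complex II, and Cox4i2, Cox6a2, Cox6b2 and Cox7a2l of complex IV. Within the gates, 77 genes were higher in T-ALL in all 3 (27.9% of all genes) and 1, Cox6a2, was lower in all 3 (30.0%). An exact test of 3 libraries against 3 that ignores the gates cannot go below p = 0.1, and pairing by gate raises that floor. The p-values therefore rest on the variance that limma shares across genes. In bulk RNA, a change in the mix of sorted cells and a change in RNA per cell cannot be told apart.

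**Figure D1:**
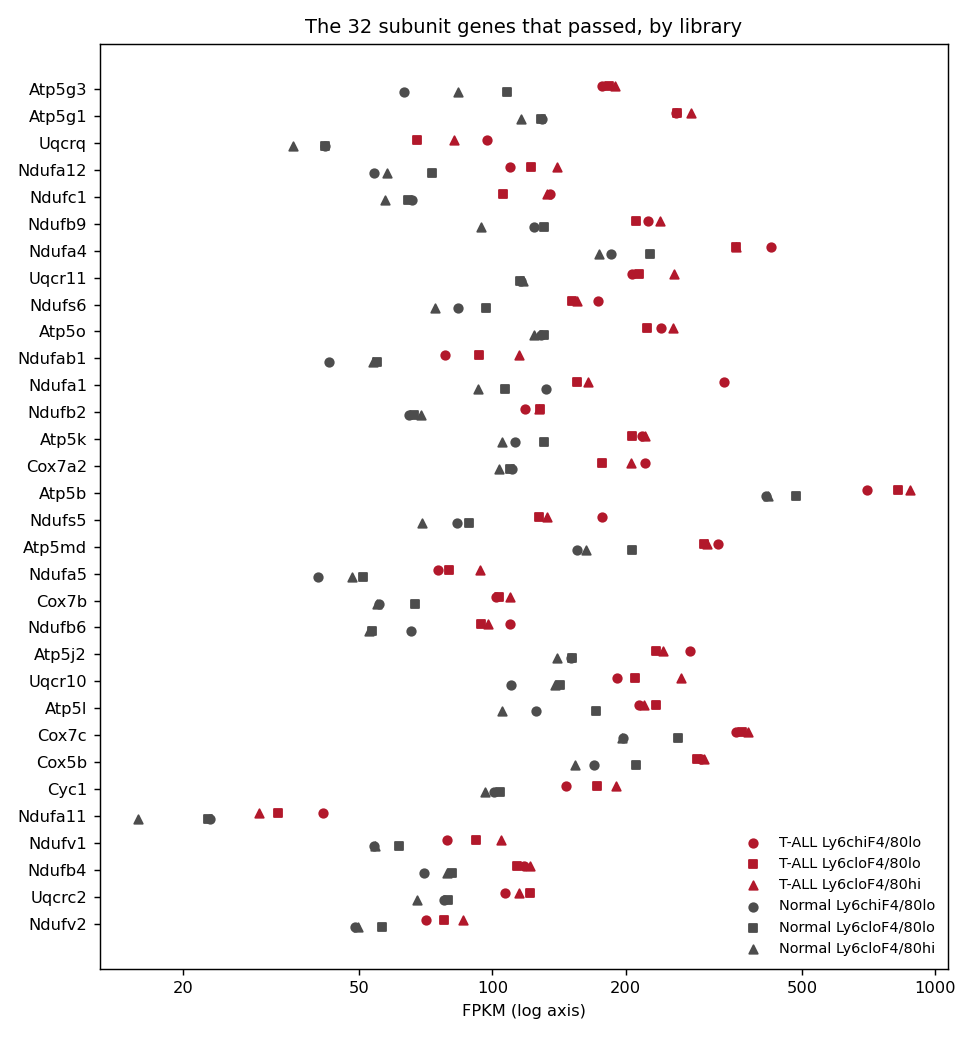
FPKM (log axis) of the 32 subunit genes that passed, 1 row per gene in order of their log2 difference, with T-ALL libraries in red, normal libraries in grey, and the gates as circles, squares and triangles. Every red point of a row lies right of every grey point of that row, from Ndufa11 at 15.9 to 41.4 FPKM up to Atp5b at 414 to 876 FPKM.

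Summed over all 84 genes, subunit mRNA came to 16263, 15710 and 16781 FPKM in T-ALL, against 9967, 11335 and 9498 FPKM in normal spleen. That was 2.79, 2.84 and 2.92% of the summed FPKM of the T-ALL libraries, against 1.94, 2.13 and 1.92% of that of the normal libraries. The sum was 1.63, 1.39 and 1.77 times as high in T-ALL, so the 2 states lay closest in Ly6cloF4/80lo, where the normal library had the highest sum of the 3 normal libraries. Complex V had the largest ratios of sums (1.78, 1.44 and 1.94), followed in their mean over gates by complexes III (1.52, 1.44 and 1.85), IV (1.62, 1.33 and 1.77) and I (1.60, 1.36 and 1.63). Complex II had the smallest (1.20, 1.35 and 1.35). No test was made between complexes.

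**Figure D2:**
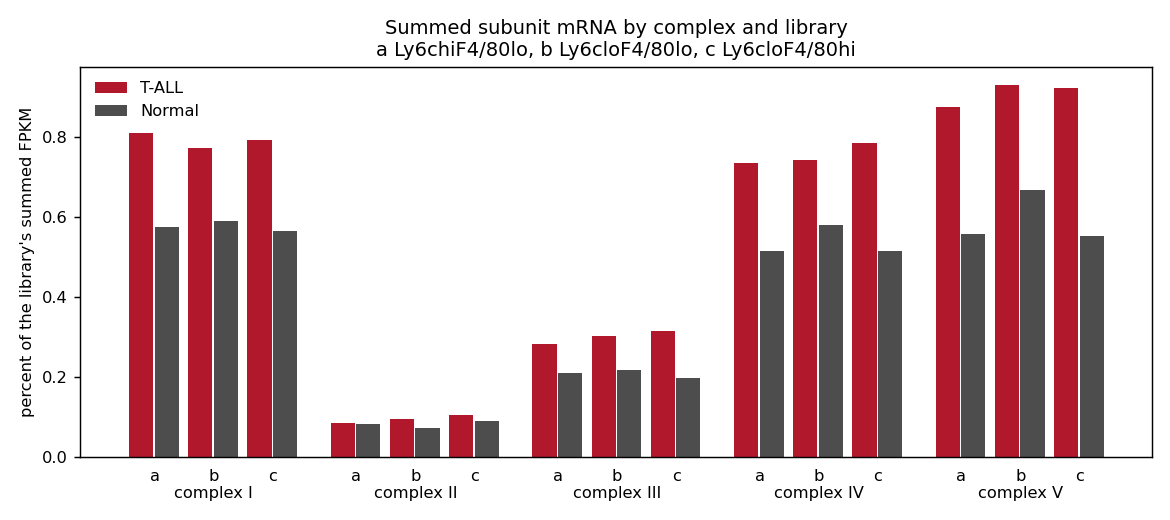
Summed FPKM of the subunit genes of each complex as a percent of the library's summed FPKM, with T-ALL in red left of normal in grey for each gate, 1 library per bar. The T-ALL bar is the taller of each pair, by the most in complex V (0.875, 0.930 and 0.923%, against 0.557, 0.667 and 0.553% in normal spleen) and by little in complex II (0.0855, 0.0947 and 0.104%, against 0.0806, 0.0730 and 0.0893%).

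Gate by gate, with 1 library per state and hence no test, the median log2 difference of the subunit genes was 0.67 in Ly6chiF4/80lo, 0.46 in Ly6cloF4/80lo and 0.79 in Ly6cloF4/80hi, beside -0.07, 0.00 and 0.02 for all genes tested. In Ly6chiF4/80lo, 45 of 81 genes were at least 1.5-fold higher in T-ALL (14.5% of all genes) and 1 was at least 1.5-fold lower (14.6%). In Ly6cloF4/80lo these numbers were 23 (13.0%) and 1 (7.37%), and in Ly6cloF4/80hi they were 57 (19.9%) and 1 (15.6%). The lower gene was Cox6a2 in Ly6chiF4/80lo and Ly6cloF4/80lo and Cox4i2 in Ly6cloF4/80hi. Complex V stood highest in 2 gates, with medians of 0.87 in Ly6chiF4/80lo and 0.97 in Ly6cloF4/80hi, while in Ly6cloF4/80lo complex III had 0.56 and complex V 0.49. Whether the state difference itself differed between gates could not be tested, since each gate has 1 library per state.

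**Figure D3:**
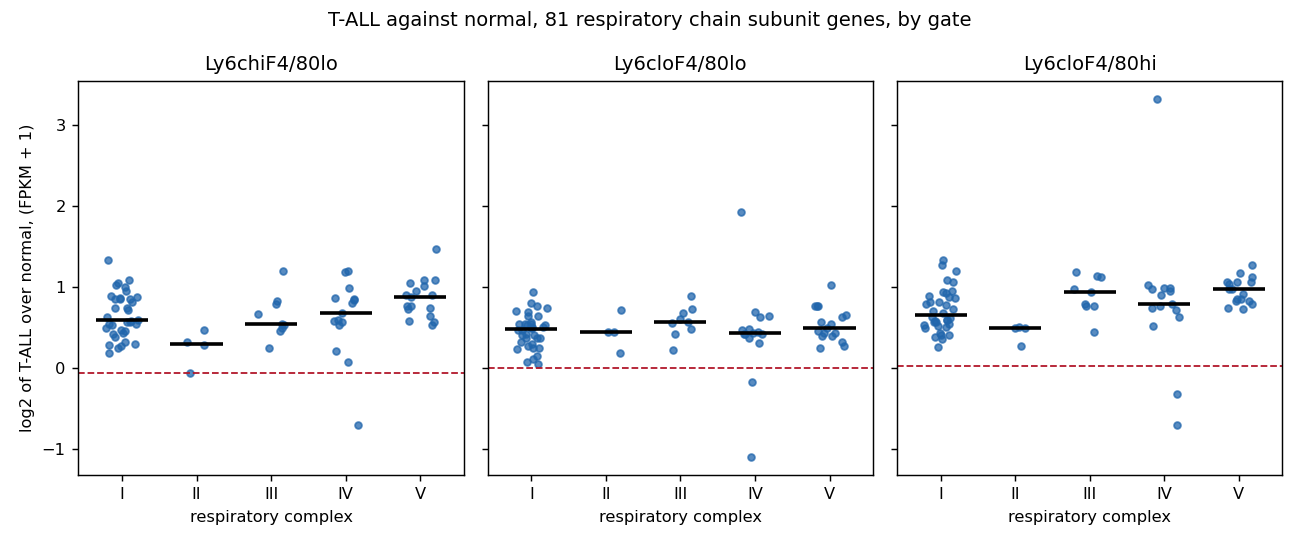
Log2 difference of T-ALL over normal, on the log2(FPKM + 1) scale, for each of the 81 tested subunit genes by complex, 1 panel per gate. Points are genes, black bars are medians of a complex, and the dashed red line is the median of all 11616 genes tested. The medians of complexes I to V all lie above that line in each gate, between 0.30 (complex II, Ly6chiF4/80lo) and 0.97 (complex V, Ly6cloF4/80hi), and the points below 0 are Sdha, Cox6a2, Cox7a2l and Cox4i2.

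The promoters of 4 subunit genes, 3 that rose and 1 that did not pass, are printed here as examples. They were picked with the values below known, and the part of binding motifs in the state difference was not tested. NRF1 is a transcription factor known to activate many respiratory chain genes, and ETS-family factors such as GABP are known to bind others. Ndufs6 (a complex I accessory subunit), Atp5k (subunit e of ATP synthase) and Uqcr11 (a small complex III subunit) rose, and Sdha (the flavoprotein of complex II) had a log2 difference of 0.13 (adjusted p = 0.564). The sequences are the 250 bases before the start site in RefSeq, build GRCm38.p6, 5′ to 3′, with matches in capitals to the NRF1 motif (GCGCA and GCGC with any 1 base between them), the ETS motif CCGGAAG and the CCAAT box, on either strand.
Ndufs6, chr13:73328483-73328732, minus strand: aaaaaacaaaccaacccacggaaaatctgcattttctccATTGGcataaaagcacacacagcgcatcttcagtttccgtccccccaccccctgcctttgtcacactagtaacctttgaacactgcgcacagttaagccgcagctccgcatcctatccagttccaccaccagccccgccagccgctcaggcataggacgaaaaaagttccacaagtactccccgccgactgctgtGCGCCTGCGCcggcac
Atp5k, chr5:108434400-108434649, minus strand: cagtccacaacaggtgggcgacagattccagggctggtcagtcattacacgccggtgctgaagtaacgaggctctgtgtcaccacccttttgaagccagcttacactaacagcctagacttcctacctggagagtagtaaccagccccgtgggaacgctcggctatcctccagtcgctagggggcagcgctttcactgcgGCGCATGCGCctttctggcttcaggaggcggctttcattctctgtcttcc
Uqcr11, chr10:80406822-80407071, minus strand: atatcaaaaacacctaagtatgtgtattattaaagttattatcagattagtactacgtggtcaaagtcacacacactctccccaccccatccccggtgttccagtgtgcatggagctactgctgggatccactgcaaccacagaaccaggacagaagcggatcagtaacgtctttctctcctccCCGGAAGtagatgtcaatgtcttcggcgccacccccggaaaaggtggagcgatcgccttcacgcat
Sdha, chr13:74350241-74350490, minus strand: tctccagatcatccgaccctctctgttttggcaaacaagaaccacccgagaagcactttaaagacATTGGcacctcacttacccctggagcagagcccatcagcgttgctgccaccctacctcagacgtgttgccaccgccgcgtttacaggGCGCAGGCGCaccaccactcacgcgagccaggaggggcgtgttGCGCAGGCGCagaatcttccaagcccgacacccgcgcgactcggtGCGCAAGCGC
The Ndufs6 stretch holds a CCAAT box 211 bases before the start and an NRF1 match 16 bases before it, both on the opposite strand. Atp5k has an NRF1 match at 50 bases, Uqcr11 an ETS match at 66 bases, and Sdha a CCAAT box on the opposite strand at 185 bases and NRF1 matches at 98, 55 and 10 bases before the start.

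Of the 84 listed genes, 68 had a promoter window in RefSeq, from 250 bases before to 50 bases after the start site. The NRF1 motif stood in 17 of the 68 (25.0%), beside 5.19% of the 27025 genes with a window of this length and 11.6% of the 9428 of them that were tested. The ETS motif also stood in 17 (25.0%), beside 9.93% of all genes with a window and 20.7% of those tested, and the CCAAT box in 29 (42.6%), beside 41.1% and 43.7%. Among subunit genes that rose, 8 of 28 with a window held the NRF1 motif and 5 of 28 the ETS motif. Among tested subunit genes that did not pass, 9 of 38 held the NRF1 motif and 12 of 38 the ETS motif. The median log2 difference was 0.62 for subunit genes with the NRF1 motif and 0.63 for those without it. The position of a match is that of its first base, and a match is only these letters in this window, and binding was not measured.

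Complex I, the NADH dehydrogenase, had 14 genes that rose and 22 that did not pass. The 7 core subunits, which carry the flavin and the iron-sulfur clusters, had a median log2 difference of 0.48, and 2 of them rose. Ndufv1, the flavoprotein that binds NADH, had 78.9, 91.7 and 105 FPKM in T-ALL, against 54.1, 61.7 and 54.2 FPKM in normal spleen (log2 0.68, SE 0.15, adjusted p = 0.0399). Its iron-sulfur partner Ndufv2 had 71.0, 77.9 and 85.8 FPKM in T-ALL, against 48.9, 56.3 and 49.9 FPKM (log2 0.59, adjusted p = 0.0474). Both were higher in T-ALL in each gate without overlap. Ndufs1, the large iron-sulfur subunit, did not pass (log2 0.50, adjusted p = 0.0540), although its states did not overlap.

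The 29 accessory subunits of complex I, which surround the core and are needed for assembly and stability, had a median of 0.57, and 12 rose. Ndufa12, an accessory subunit of the matrix arm, had the highest log2 difference of complex I, with 109, 123 and 140 FPKM in T-ALL, against 54.2, 73.2 and 57.8 FPKM in normal spleen (log2 1.00, SE 0.16, adjusted p = 0.0203). Ndufab1, the mitochondrial acyl carrier protein, had 78.1, 93.5 and 115 FPKM in T-ALL, against 42.8, 54.8 and 53.7 FPKM in normal spleen (log2 0.90, SE 0.14, adjusted p = 0.0195). The lowest T-ALL library of each lay well above the highest normal one. Ndufb2, a small subunit of the membrane arm, was among the most even, with 119, 128 and 128 FPKM in T-ALL, against 64.7, 66.7 and 69.1 FPKM in normal spleen (log2 0.89, adjusted p = 0.0173). Ndufs6, a late-assembling subunit whose promoter is shown above, had 173, 151 and 156 FPKM in T-ALL, against 83.5, 96.9 and 74.4 FPKM in normal spleen (log2 0.91, adjusted p = 0.0238). Both had their 3 T-ALL libraries within a narrow span above the normal ones. Ndufa1 differed more by gate: 334, 155 and 164 FPKM in T-ALL, against 132, 107 and 93.0 FPKM in normal spleen (log2 0.89, SE 0.20, adjusted p = 0.0391), with the Ly6chiF4/80lo library of T-ALL far above the rest. The other 7 that rose were Ndufc1 (log2 0.97), Ndufb9 (0.96), Ndufs5 (0.84), Ndufa5 (0.82), Ndufb6 (0.81), Ndufa11 (0.73) and Ndufb4 (0.61), with adjusted p between 0.0208 and 0.0441. Ndufb4 has near copies in the genome, Ndufb4b and Ndufb4c among them, so its value depends on how the authors' quantification divided shared reads. Ndufa9, at the junction of the arms (log2 0.51, adjusted p = 0.0641), and Ndufb8, of the membrane arm (log2 0.56, adjusted p = 0.0637), did not pass.

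None of the 4 genes of complex II, the succinate dehydrogenase that also serves the citric acid cycle, passed in either direction. At an unadjusted p under 0.05, 3 of them were higher. Sdha, the catalytic flavoprotein, had 112, 147 and 147 FPKM in T-ALL, against 117, 129 and 122 FPKM in normal spleen, and it was the only gene of the complex whose states overlapped. Its difference was below 0 in Ly6chiF4/80lo. Sdhb, the iron-sulfur subunit, had 184, 162 and 196 FPKM in T-ALL, against 134, 119 and 138 FPKM in normal spleen (log2 0.47, SE 0.15, adjusted p = 0.0807). The membrane anchors Sdhc (log2 0.40, adjusted p = 0.0990) and Sdhd (log2 0.51, adjusted p = 0.0754) were likewise higher in all 3 T-ALL libraries than in any normal one, in FPKM as deposited. Their gaps were small, with 84.5 and 108 FPKM in the lowest T-ALL library, against 81.85 and 99.8 FPKM in the highest normal one. Whether this held after rescaling was not tested.

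Complex III, the cytochrome bc1 complex, had 5 of 9 genes that rose and a median log2 difference of 0.68. Cyc1, the cytochrome c1 that passes electrons to cytochrome c, had 147, 172 and 190 FPKM in T-ALL, against 101, 104 and 96.5 FPKM in normal spleen (log2 0.74, SE 0.16, adjusted p = 0.0368). Uqcrfs1, the Rieske iron-sulfur protein, had 149, 129 and 131 FPKM in T-ALL, against 103, 96.7 and 75.5 FPKM in normal spleen, and did not pass (log2 0.57, adjusted p = 0.0571). Both catalytic subunits thus lay higher in T-ALL in each gate. Of the core proteins, which have no redox centre, Uqcrc2 rose (log2 0.60, adjusted p = 0.0471) and Uqcrc1 did not pass (log2 0.52, adjusted p = 0.0906). The small subunits had a median of 0.76, and 3 of 5 rose. Uqcrq had 97.3, 67.5 and 81.8 FPKM in T-ALL, against 42.0, 41.9 and 35.5 FPKM in normal spleen, the highest log2 difference of the complex (1.02, SE 0.16, adjusted p = 0.0201). Uqcr11 had 206, 214 and 256 FPKM in T-ALL, against 116, 116 and 117 FPKM in normal spleen (log2 0.94, adjusted p = 0.0214), so its 3 normal libraries were nearly equal. Uqcr10 rose as well (log2 0.76, adjusted p = 0.0356). Uqcrh, the hinge protein (log2 0.68, adjusted p = 0.0863), and Uqcrb, which had the lowest log2 difference (0.47, adjusted p = 0.0859), did not pass.

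Complex IV, the cytochrome c oxidase, had 5 of its 15 tested genes that rose, and they lay among the 12 genes of broad expression, whose median log2 difference was 0.66. Ndufa4, first named as a complex I subunit and now placed in complex IV, had 426, 354 and 355 FPKM in T-ALL, against 185, 227 and 174 FPKM in normal spleen (log2 0.95, SE 0.19, adjusted p = 0.0306). Cox7a2 had 221, 177 and 205 FPKM in T-ALL, against 111, 110 and 103 FPKM in normal spleen (log2 0.89, adjusted p = 0.0239). Both were higher in every T-ALL library, with the Ly6chiF4/80lo library highest. Cox7b (log2 0.82, adjusted p = 0.0243), Cox7c (log2 0.76, adjusted p = 0.0475) and Cox5b (log2 0.74, adjusted p = 0.0471), small subunits of the complex, also rose. The most abundant genes of the complex did not pass. Cox4i1, the ubiquitous form of subunit 4, had 567, 530 and 573 FPKM in T-ALL, against 382, 411 and 349 FPKM in normal spleen (log2 0.55, adjusted p = 0.0946). Cox6a1 (log2 0.57, adjusted p = 0.0863), Cox8a (log2 0.68, adjusted p = 0.0641) and Cox5a (log2 0.55, adjusted p = 0.0692) did not pass either. Cox7a2l had 221, 280 and 230 FPKM in T-ALL, against 192, 317 and 161 FPKM in normal spleen. It was the only gene of broad expression in the complex whose states overlapped (log2 0.18, adjusted p = 0.536), with the Ly6cloF4/80lo library of normal spleen highest of all 6.

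Isoforms of complex IV known from other tissues were rare, and none passed between states in the limma fit described above, before any rescaling. Cox6b2, the form of subunit 6b known from testis, had 7.0, 32.4 and 47.9 FPKM in T-ALL, against 6.64, 7.82 and 3.90 FPKM in normal spleen. It was high in the 2 Ly6clo libraries of T-ALL only, where it made up 5.80 and 7.41% of the Cox6b1 and Cox6b2 sum, against 1.95 and 1.20% in normal spleen of the same gates. Its log2 difference of 1.77 was the highest of all subunit genes, but its SE was 0.56 and it did not pass (adjusted p = 0.0859). Without either Ly6chiF4/80lo library that gate gives no difference between states, and Cox6b2 then passed (log2 2.62, adjusted p = 0.0144 without the T-ALL library and 0.0136 without the normal one). Without either Ly6cloF4/80hi library the log2 difference was 0.99 and it did not pass. It rested on 115 and 177 fragments in the Ly6clo libraries of T-ALL and on 12.8 to 26.5 fragments in each of the other 4 libraries. The erythroid marker list was also highest in the 2 Ly6clo libraries of T-ALL, with summed levels of 85.6, 1473 and 2674 FPKM in T-ALL, against 43.9, 179 and 251 FPKM in normal spleen. Across the normal libraries the 2 differed, since the erythroid sum was highest in Ly6cloF4/80hi, where Cox6b2 was lowest. The part of erythroid cells in the Cox6b2 result was not tested. Cox6a2, the heart and muscle form of subunit 6a, had 9.46, 0.92 and 4.80 FPKM in T-ALL, against 16.1, 3.12 and 6.27 FPKM in normal spleen. It was lower in T-ALL in each gate and had the lowest log2 difference of all subunit genes (-0.71, SE 0.20, adjusted p = 0.0636). It passed as lower when the libraries were rescaled to an equal FPKM sum, or to the sum without their 50 highest genes. Cox4i2, the form of subunit 4 known from lung, had 2.14, 0.68 and 2.48 FPKM in T-ALL, against 0.38, 0.36 and 4.69 FPKM in normal spleen (log2 0.26, adjusted p = 0.632), with 2.0 to 25.8 fragments behind a value. A further 3 genes of the complex were too low to test. Cox7a1, the heart and muscle form of subunit 7a, had 0, 0.33 and 0 FPKM in T-ALL, against 0.37, 0 and 0 FPKM in normal spleen. Cox8b had a value, 0.43 FPKM, in Ly6chiF4/80lo of T-ALL alone, and Ndufa4l2, the paralog of Ndufa4 known to be induced by hypoxia, had 0.78, 0 and 0.24 FPKM in T-ALL, against 0.28, 0 and 0 FPKM in normal spleen.

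**Figure D4:**
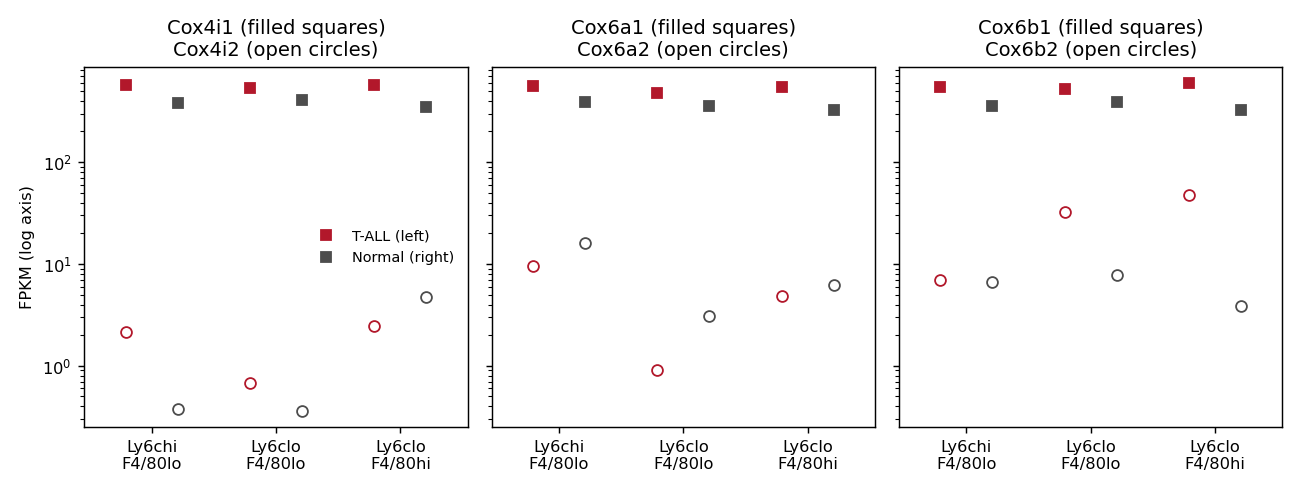
FPKM (log axis) of 3 isoform pairs of complex IV in each gate, with T-ALL in red left of normal in grey, 1 library per point, filled squares for the ubiquitous form and open circles for the tissue form. The filled squares lie between 322 and 599 FPKM and are higher in T-ALL in every gate, while the open circles lie below 50 FPKM and differ in pattern, with Cox6b2 high in the 2 Ly6clo libraries of T-ALL, Cox6a2 lower in T-ALL in each gate, and Cox4i2 at most 4.69 FPKM.

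Complex V, the ATP synthase, had the highest median log2 difference of the 5 complexes (0.77), and 8 of its 17 genes rose. In the catalytic F1 head, Atp5b (the beta subunit, which holds the catalytic sites) was the most abundant subunit gene of every library. It had 700, 822 and 876 FPKM in T-ALL, against 414, 486 and 419 FPKM in normal spleen (log2 0.86, SE 0.19, adjusted p = 0.0409). Atp5a1, the alpha subunit, had 294, 331 and 358 FPKM in T-ALL, against 199, 225 and 202 FPKM in normal spleen, and did not pass (log2 0.65, adjusted p = 0.0550). The gamma subunit Atp5c1 had the lowest log2 difference of the complex (0.59, adjusted p = 0.0717), and the delta subunit Atp5d was near it (0.62, adjusted p = 0.0574). All F1 genes nonetheless had every T-ALL library above every normal one.

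The c subunit forms the proton-driven ring of the ATP synthase, and its 3 genes encode the same mature protein with different import sequences. Atp5g3 had 177, 183 and 190 FPKM in T-ALL, against 63.2, 108 and 83.5 FPKM in normal spleen, the highest log2 difference of the complex (1.13, SE 0.18, adjusted p = 0.0206). Atp5g1 had 260, 261 and 281 FPKM in T-ALL, against 129, 128 and 116 FPKM in normal spleen (log2 1.10, SE 0.16, adjusted p = 0.0155), and it passed in 13 of the 15 alternative settings, more than any other subunit gene. Atp5g2 had 301, 337 and 336 FPKM in T-ALL, against 141, 279 and 170 FPKM in normal spleen, and did not pass (log2 0.78, adjusted p = 0.0626), the normal Ly6cloF4/80lo library lying near the T-ALL ones. The 3 genes summed to 738, 781 and 807 FPKM in T-ALL, against 333, 515 and 370 FPKM in normal spleen. Atp5g2 supplied 40.7, 43.1 and 41.6% of that sum in T-ALL, against 42.3, 54.2 and 46.1% in normal spleen.

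Of the peripheral stalk subunits, Atp5o (OSCP) rose, with 240, 223 and 256 FPKM in T-ALL, against 129, 131 and 124 FPKM in normal spleen (log2 0.90, SE 0.15, adjusted p = 0.0231). The other 3, Atp5pb, Atp5h and Atp5j, had log2 differences of 0.62 to 0.64 and adjusted p of 0.0524 to 0.0616. The small membrane subunits, several of which are known to hold ATP synthase dimers together, had 4 of 5 genes that rose. Atp5k, whose promoter is shown above, had 218, 207 and 221 FPKM in T-ALL, against 112, 131 and 105 FPKM in normal spleen (log2 0.89, adjusted p = 0.0255). Atp5md (log2 0.83), Atp5j2 (0.77) and Atp5l (0.76) rose with adjusted p of 0.0339 to 0.0457. Atpif1, the inhibitor of ATP hydrolysis by the enzyme, falls outside the symbol rule. It rose too, with 65.8, 151 and 202 FPKM in T-ALL, against 42.4, 70.3 and 77.3 FPKM in normal spleen (log2 1.03, SE 0.18, adjusted p = 0.0245), and it differed least in Ly6chiF4/80lo.

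Between gates, with the state as a block, subunit genes differed little. In Ly6cloF4/80hi against Ly6chiF4/80lo, 0 of 81 genes were higher (7.10% of all genes) and 1 was lower (5.68%), with 3 higher and 4 lower at an unadjusted p under 0.05 (17.9% and 11.4%) and a median log2 difference of -0.01, beside 0.12 for all genes. In Ly6cloF4/80lo against Ly6chiF4/80lo, 0 were higher (2.68%) and 1 lower (2.05%), with 0 and 2 at an unadjusted p under 0.05 (18.7% and 7.67%) and a median of 0.06, beside 0.19. In Ly6cloF4/80hi against Ly6cloF4/80lo limma passed 0 in either direction (2.66% and 0.904%), with 3 and 2 at an unadjusted p under 0.05 (8.58% and 10.4%) and a median of -0.05, beside -0.10. A p that misses the threshold does not show that the gates are alike, and these contrasts have 2 libraries per gate.

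The gene that passed was Cox6a2 both times, highest in Ly6chiF4/80lo in either state, as its values above show. It was lower in Ly6cloF4/80lo than in Ly6chiF4/80lo by a log2 difference of -2.25 (SE 0.24, adjusted p = 0.0114) and lower in Ly6cloF4/80hi than in Ly6chiF4/80lo by -1.04 (SE 0.24, adjusted p = 0.0421). The Ly6cloF4/80lo call was lost without T-ALL Ly6chiF4/80lo (adjusted p = 0.0504) and without the state block (0.179). The Ly6cloF4/80hi call was lost in 7 of 15 settings, among them a pseudocount of 0.1 (0.0738) and the omission of T-ALL Ly6chiF4/80lo (0.151), normal Ly6chiF4/80lo (0.142) or normal Ly6cloF4/80hi (0.205).

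The other extremes of the gate contrasts did not pass with all 6 libraries. In Ly6cloF4/80hi against Ly6chiF4/80lo they were Ndufa1 (log2 -0.76) and Ndufc2 (0.44) of complex I, Sdhb (0.07) and Sdhd (0.28) of complex II, Uqcrfs1 (-0.31) and Uqcr10 (0.40) of complex III, Cox4i2 (1.10) of complex IV, and Atp5j (-0.19) and Atp5g3 (0.25) of complex V. In Ly6cloF4/80lo against Ly6chiF4/80lo they were Ndufa1 (-0.70) and Ndufa6 (0.31), Sdhc (-0.23) and Sdha (0.27), Uqcrq (-0.26) and Uqcrh (0.33), Cox6b2 (1.13), and Atp5j2 (-0.12) and Atp5g2 (0.57). In Ly6cloF4/80hi against Ly6cloF4/80lo they were Ndufa6 (-0.51) and Ndufv3 (0.23), Sdha (-0.04) and Sdhc (0.42), Uqcrh (-0.53) and Uqcrb (0.19), Cox7a2l (-0.62) and Cox4i2 (1.56), and Atp5e (-0.46) and Atp5o (0.06). Leaving out 1 library changed the call of 2 of these isoforms. Without normal Ly6chiF4/80lo, Cox6b2 passed as higher in Ly6cloF4/80hi (log2 2.26, adjusted p = 0.0352) and in Ly6cloF4/80lo (2.41, adjusted p = 0.0461), each against Ly6chiF4/80lo. Without T-ALL Ly6cloF4/80hi, Cox4i2 passed as higher in Ly6cloF4/80hi against Ly6chiF4/80lo (1.82, adjusted p = 0.0390) and against Ly6cloF4/80lo (2.29, adjusted p = 0.0264). Apart from the tissue isoforms of complex IV, the gene farthest from 0 was Ndufa1.

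Lists of genes that serve the chain without being subunits were counted beside all genes tested, of which 8.20% rose and 3.94% fell. The share that rose was 6.12% of the assembly factors, 7.69% of the citric acid cycle genes and 4.76% of the regulators, none above that of all genes. It was 15.4% of the coenzyme Q genes and 16.7% of the carriers and channels, which rest on 2 genes each, 11.2% of the cytosolic and 32.1% of the mitochondrial ribosomal protein genes. Of 49 assembly factors 3 rose and 0 fell, with a median log2 difference of 0.16: Cmc2 (1.29, adjusted p = 0.0104) and Cox17, a copper chaperone (0.80, adjusted p = 0.0289), both of complex IV, and Ndufaf2 of complex I (1.09, adjusted p = 0.0254). Of 12 carriers and channels 2 rose, Vdac1, the outer membrane channel (0.94, adjusted p = 0.0141), and Cycs, cytochrome c itself (0.63, adjusted p = 0.0391), and the median was 0.49. Of 13 coenzyme Q genes 2 rose, Coq7 (0.98, adjusted p = 0.0167) and Coq4 (0.67, adjusted p = 0.0481), with a median of 0.12. Of 13 citric acid cycle genes 1 rose, Dld (0.57, adjusted p = 0.0450), with a median of 0.43. Of 21 tested regulators of mitochondrial gene expression 1 rose, Slirp, an RNA-binding protein of mitochondrial mRNA (0.83, adjusted p = 0.0206). The nuclear factors themselves did not pass, with Nrf1 at 23.7, 28.2 and 27.9 FPKM in T-ALL, against 22.9, 26.7 and 23.0 FPKM in normal spleen (log2 0.13, adjusted p = 0.517), and Gabpa at a log2 difference of 0.15 (adjusted p = 0.447). Of 78 mitochondrial ribosomal protein genes 25 rose (median 0.49), and of 80 cytosolic ones 9 rose (median 0.90). None of these lists had a gene that fell.

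Marker lists of other cells moved with the state as well, and their part in the subunit genes' result was not tested. Of 25 cell cycle genes 24 rose, with median log2 differences of 1.73, 1.46 and 2.29 in the gates and summed levels of 1286 to 2031 FPKM in T-ALL, against 367 to 525 FPKM in normal spleen. Of 16 erythroid genes 9 rose, with medians of 0.53, 2.84 and 3.47 and none at 0. The globin genes summed to 879, 5127 and 38890 FPKM in T-ALL, against 875, 514 and 5052 FPKM in normal spleen, with Hbb-b2 at 0 in 5 libraries. The subunit genes had medians of 0.67, 0.46 and 0.79 in the same gates. Of 10 myeloid progenitor genes 7 rose and 1 fell (sums of 113 to 1821 FPKM in T-ALL, against 60.5 to 304 FPKM in normal spleen, none at 0), and of 7 plasma cell genes 6 rose (1678 to 14680 FPKM in T-ALL, against 463 to 5866 FPKM, none at 0). Of 7 megakaryocyte genes 2 rose (37.2 to 60.3 FPKM in T-ALL, against 17.7 to 24.8 FPKM in normal spleen, with Gp6 at 0 in 1 library). Of 10 red pulp macrophage genes 9 fell, with medians of -1.15, -1.37 and -1.68 and summed levels of 231 to 3767 FPKM in T-ALL, against 599 to 11610 FPKM in normal spleen. Of 9 T cell genes 0 rose and 1, Cd4, fell, and of 10 neutrophil genes and 8 B cell genes limma passed none. With 1 library per gate and state, no gate could be tested alone, and the neutrophil genes had median log2 differences of 1.68, -1.69 and -0.55 in the gates, so that the mean over gates hides opposite signs. All 10 were higher in T-ALL in Ly6chiF4/80lo and 2 in each of the other gates. They summed to 45270, 113 and 212 FPKM in T-ALL, against 13480, 391 and 337 FPKM in normal spleen, with none at 0. The B cell genes had medians of -0.56, -0.53 and 0.07. They summed to 1248, 2553 and 2037 FPKM in T-ALL, against 1535, 3746 and 1936 FPKM in normal spleen. The T cell genes also differed in sign between gates, with medians of -0.57, -0.63 and 0.47. They summed to 106, 151 and 152 FPKM in T-ALL, against 177, 246 and 120 FPKM in normal spleen. In Ly6cloF4/80hi 7 of the 10 listed T cell genes were higher in T-ALL, against 0 in Ly6chiF4/80lo and 1 in Ly6cloF4/80lo.

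Annotated subunit transcripts are short, with a median length of 680 bases over the 81 genes tested, beside 2092 bases over other genes tested. The length of a gene is the median over its annotated protein-coding transcripts. It need not be that of the transcript expressed here, so genes may stand in a wrong length class. Short transcripts of other genes also had the higher log2 differences. Among other genes the median log2 difference was 0.16 for transcripts of up to 500 bases (176 genes, 13.1% of which rose) and -0.14 for those above 4000 bases (1802 genes, 3.39%). The subunit genes had medians of 0.77 in the class up to 500 bases (13 genes), 0.62 from 500 to 700 bases (29 genes), 0.59 from 700 to 1000 bases (21 genes) and 0.51 from 1000 to 2000 bases (15 genes), where other genes had 0.16, 0.12, 0.12 and 0.03. The 3 from 2000 to 4000 bases, Ndufb2 (2413), Atp5a1 (2572.5) and Atp5g1 (2675.5), had a median of 0.89, beside -0.08 for other genes. The median of the subunit genes was the higher in each class that held any, by these annotated lengths. Across genes, which are not independent replicates, Spearman's rho of length with the log2 difference was -0.26 over 81 subunit genes and -0.19 over 11456 other genes. The part of length in the result was not tested further.

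**Figure D5:**
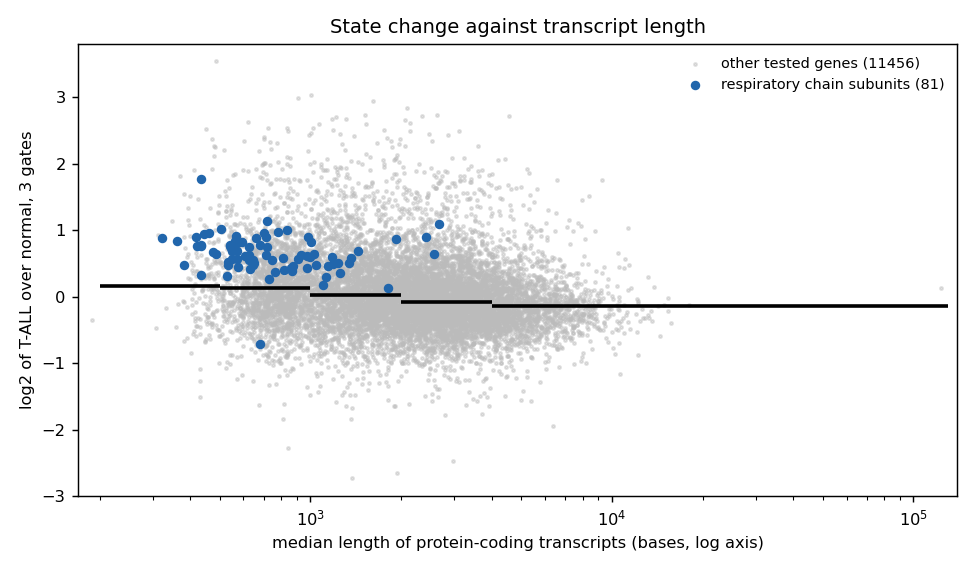
Log2 difference of T-ALL over normal over the 3 gates against the median length of a gene's protein-coding transcripts (bases, log axis), for 81 subunit genes in blue and 11456 other tested genes in grey, with black lines at the median of the other genes in each length class. The blue points lie mostly between 322 and 2676 bases and above the black lines, with Cox6a2 at -0.71 below them and Cox6b2 at 1.77 the highest.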

How the data were processed

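The authors deposited 1 table of FPKM per library. The submitters' processing notes name Bowtie2 2.2.5 and RSEM. The sources used here do not give the RSEM version, the genome build or the annotation. Entrez identifiers were given symbols from a RefSeq table of GRCm38.p6 (16017 of 16058 matched, 99.7%), and genes without a row in a file count as 0. RSEM divides reads that fit several genes, so values of genes with near copies are uncertain. FPKM were analysed as log2(FPKM + 1), a scale that understates changes of low genes, with limma 3.58.1 and statmod 1.5.0 in R 4.3.3. The 11616 genes that reached 1 FPKM in 2 or more of the 6 libraries entered a model of state and gate, whose prior was trended and robust and which has 2 residual degrees of freedom. Tests were two-sided, with Benjamini-Hochberg adjustment over all genes tested. The SE is that of the moderated fit. Fits and depth estimates were tested on simulated data. Depth came from the spacing of low FPKM values and GENCODE M21 transcript lengths, which exceed effective lengths, so it is a low estimate, and its errors cover counting only. Python 3.11.15, numpy 2.4.6, pandas 2.3.3 and matplotlib 3.10.9 were used.

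Genes named are a set list of members, every member that passed, the highest and lowest member of each complex and comparison, members too low to test, and from other lists up to 4 members of large change; genes named beyond these illustrate a count, and one gene picked by the rule is not reported. The subunit genes, the lists and the rules were chosen with earlier results of these data known. The alternatives were a pseudocount of 0.1, no filter, a mean of at least 5 FPKM, rescaling to an equal sum (TPM), by median ratios, or to the sum without the 50 highest genes, quantile normalization, a plain limma prior, no block, and each library left out.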

Additional observations from a re-analysis of the deposited data

Results flagged for a closer look

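For 3 subunit genes the difference between T-ALL and normal spleen had opposite signs in different gates. Each gate has 1 library per state, and the difference between gates was not tested. Cox4i2 had log2 differences of 1.19 in Ly6chiF4/80lo, 0.30 in Ly6cloF4/80lo and -0.71 in Ly6cloF4/80hi, on 2.0 to 25.8 fragments per library. Cox7a2l had 0.21, -0.18 and 0.51 in the same order. Sdha had -0.06, 0.18 and 0.27.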

How the results depend on the processing

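The median log2 difference of the subunit genes between T-ALL and normal spleen stayed positive in all 15 alternative settings, while the number that passed depended on them. Against 32, it was 36 with a pseudocount of 0.1 (9.7% of all genes rose), 41 with a mean of at least 5 FPKM (11.2%) and 26 after TPM rescaling (7.45%). It was 29 after median-ratio rescaling (7.73%), 23 when rescaled without the 50 highest genes (5.98%) and 19 after quantile normalization (6.48%). It was 27 without the trended and robust prior (6.57%). Without the filter on low values 3 passed (Atp5g1, Ndufb2 and Ndufab1, beside 1.82% of all genes). Without the block 2 passed (Atp5g1 and Ndufb2, beside 1.27%). Leaving out 1 library gave 0 to 32, beside 2.2 to 7.23% of all genes. Leaving out either library of a gate removes that gate from the state comparison. Members lower in T-ALL numbered 1 (Cox6a2) after TPM rescaling and when rescaled without the 50 highest genes. Of all 11616 genes tested, 1113 and 1054 were lower in these 2 settings.

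Over all genes, 67.5% of the calls between states were higher in T-ALL, against 43.7% after TPM rescaling, 39.7% without the 50 highest genes and 58.4% after quantile normalization. These rescalings moved the median of all genes from -0.03 to -0.17 (TPM and without the 50 highest genes) and that of the subunit genes to 0.47 and 0.46, and after quantile normalization the subunit genes had 0.43. Without the 50 highest genes, complexes I to V had medians of 0.39, 0.27, 0.51, 0.47 and 0.60, and after quantile normalization complexes III to V had 0.48, 0.40 and 0.58. Sdha reversed to -0.017 after TPM rescaling and -0.033 without the 50 highest genes, and Cox4i2 to -0.202 without either Ly6chiF4/80lo library, within a range of -0.202 to 0.745 on leaving out 1 library. The cause was not tested.

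Within gates, the median log2 difference was 0.47, 0.49 and 0.50 in Ly6chiF4/80lo and 0.61, 0.57 and 0.58 in Ly6cloF4/80hi after quantile normalization, TPM rescaling and rescaling without the 50 highest genes, and 12 subunit genes were at least 1.5-fold higher in Ly6cloF4/80lo after quantile normalization and without the 50 highest genes. The mean log2 ratio of summed FPKM, 0.61 for complex I and 0.38 for complex II, was 0.46 and 0.23 after TPM rescaling and 0.44 and 0.21 without the 50 highest genes.

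In Ly6cloF4/80hi against Ly6chiF4/80lo the number of lower genes was 0 with a pseudocount of 0.1, without the filter, with a mean of at least 5 FPKM and without the block, and leaving out 1 library gave 0 to 1 lower and 0 to 1 higher. In Ly6cloF4/80lo against Ly6chiF4/80lo it was 0 without the block and 0 to 1 on leaving out 1 library, with 0 to 1 higher, and the median was -0.15 after median-ratio rescaling. In Ly6cloF4/80hi against Ly6cloF4/80lo 1 gene was higher (Cox6a2) after TPM rescaling and without the 50 highest genes, and 0 to 1 on leaving out 1 library. Of all calls, 55.6% were higher in Ly6cloF4/80hi against Ly6chiF4/80lo (45.4% after median-ratio rescaling and 42.6% after quantile normalization) and 56.6% in Ly6cloF4/80lo against Ly6chiF4/80lo (35.8% and 40.2%). No paired analysis was possible because the labels carry no replicate numbers, other than by gate, which pairs a T-ALL with a normal library and was the block of the comparison between states.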
